A study of Mus musculus with 17 samples.

Results

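The tumors compared here were chosen by 1 measured value, the signal of the brighter array probe set for Hoxd3os1, a noncoding RNA transcribed antisense within the HoxD cluster, and were the 5 with the highest and the 5 with the lowest signal. They were taken from 17 primary neuroblastomas of TH-MYCN mice, each hybridized to its own Affymetrix mouse array, and 7 tumors lay between the sets. All 17 came from 1 labelled group, hemizygous for a human MYCN transgene kept on a single inbred background, in which the rat tyrosine hydroxylase promoter drives MYCN in cells of the neural crest lineage. The labels name no treatment, age, sex or batch for a tumor, and nothing in them distinguishes the high set from the low set. The sets were formed from a measured value alone, so a difference between them describes genes that varied together among tumors and not the effect of a condition. The tumors keep their numbers from the labels, mad548 to mad565.

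Hox genes encode homeodomain transcription factors that give cells their position along the head-to-tail axis of the embryo. In mammals they lie in the HoxA, HoxB, HoxC and HoxD clusters, where the order of the genes along the chromosome follows the order in which they are switched on and the body level at which they are expressed. Neighbouring genes of a cluster share regulatory landscapes and chromatin marks, and noncoding RNAs run between and across the coding genes. Neuroblastomas arise from the sympathoadrenal branch of the trunk neural crest, whose cells carry the Hox genes of the body level from which they came.

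The ranking values were spread over a wide range and set the groups, so they are given only as a description. On the log2 scale the ranking probe set stood at 10.22 in mad558, 9.85 in mad561, 9.80 in mad560, 9.71 in mad562 and 9.66 in mad556, the high set. It stood at 5.24 in mad552, 5.06 in mad549, 4.97 in mad550, 4.69 in mad563 and 4.60 in mad559, the low set. The first tumor outside the high set, mad548, had 9.12, and the first outside the low set, mad555, had 5.32. The ranking did not run evenly from top to bottom. The widest step lay between mad565 at 7.96 and mad555 at 5.32, a gap of 2.64 that left 11 tumors above it and 6 below. A dimmer probe set of the same gene lay between 4.56 and 5.09 in all 17 tumors and showed no step like that of the ranking probe set. It was highest in mad556, mad561 and mad560 of the high set and lowest in mad550 of the low set. In mad558, first in the ranking, it had 4.60. Whether it followed the ranking was not tested. Both probe sets were left out of every result that follows.

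The samples carried the genes of their labelled tissue in both sets. Th, the enzyme that makes the precursor of the catecholamines, averaged 13.06 ± 0.95 (SD, n = 5) in the high set and 12.71 ± 0.72 in the low set. Hand2, a transcription factor of sympathetic neurons, averaged 12.85 ± 0.23 and 12.83 ± 0.12. Array medians ran from 6.28 to 6.51, and the lowest correlation of any pair of arrays was 0.969. Transcripts of the Y chromosome were present in mad561 and mad562 of the high set and in 3 of the 7 tumors between, and in none of the low set. RNA of skeletal muscle was high in mad549 and mad550 of the low set and in no tumor of the high set. Liver RNA was high in mad562 of the high set and mad559 of the low set, with values given below.

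Of 18192 genes tested between the sets with limma, 3 were higher in the high set at an adjusted p under 0.05 and none was lower. All 3 were HoxD genes, Hoxd9, Hoxd8 and Hoxd3, and they made up 0.0165% of the genes tested. The median difference over all genes was -0.02 on the log2 scale, and the middle of the distribution, from its 5% to its 95% point, ran from -0.22 to 0.25. At an unadjusted p under 0.05 the test found 516 genes, 2.84% of those tested, 147 of them higher (0.808%) and 369 lower (2.03%). Differences of at least 1 in size, in either direction, were measured for 67 genes, or 0.368%. In bulk tumor RNA a higher level per cell and a larger share of expressing cells cannot be told apart. The values come from 1 array per tumor, and the adjusted p measures only the spread between these tumors.

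**Figure D1:**
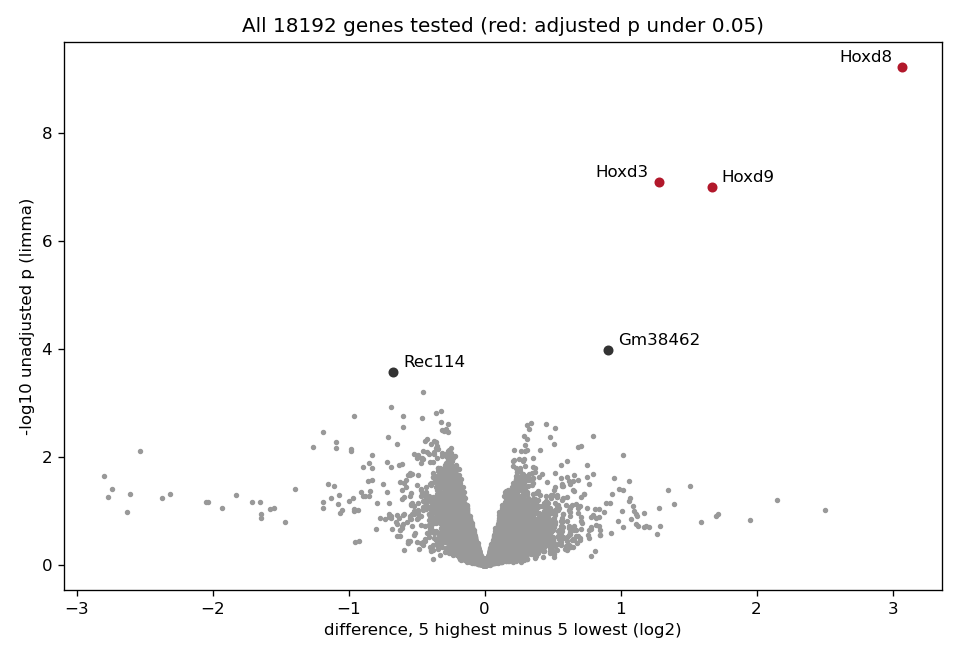
Each point is 1 of the 18192 genes tested, with the difference of the 5 highest minus the 5 lowest tumors (log2) on the x axis and -log10 of limma's unadjusted p on the y axis. The 3 red points past the adjusted threshold are Hoxd8 at 3.07, Hoxd9 at 1.67 and Hoxd3 at 1.28, and Gm38462 and Rec114 are labelled in black although they did not pass.

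The 3 genes lie in the middle of the HoxD cluster on mouse chromosome 2, in the order Hoxd9, Hoxd8 and Hoxd3, with no other coding gene among them. In the RefSeq annotation Hoxd10, Hoxd11, Hoxd12, Hoxd13 and Evx2 follow on the Hoxd9 side, and Hoxd4, Hoxd1 and Mtx2 follow on the Hoxd3 side. The coding Hox genes read from the plus strand. The antisense lncRNA Gm38462 lies across Hoxd8 and Hoxd3, and the ranking gene, also antisense, overlaps Hoxd3 and Gm38462. The sequence around the start of each of these genes is shown here, beside the nearest flanking genes that were tested and not called, so that the start sites of this stretch can be compared. Each window holds 300 bases, 250 before and 50 after the annotated start, from RefSeq on GRCm38.p6, with every CG dinucleotide in capitals. The windows are chr2:74697513-74697812 (plus strand) for Hoxd9, chr2:74704365-74704664 (plus) for Hoxd8, chr2:74711743-74712042 (plus) for Hoxd3 and chr2:74712009-74712308 (minus) for one start of Gm38462. Those of the flanks are chr2:74691641-74691940 (plus) for Hoxd10 and chr2:74762730-74763029 (plus) for Hoxd1.
Hoxd10: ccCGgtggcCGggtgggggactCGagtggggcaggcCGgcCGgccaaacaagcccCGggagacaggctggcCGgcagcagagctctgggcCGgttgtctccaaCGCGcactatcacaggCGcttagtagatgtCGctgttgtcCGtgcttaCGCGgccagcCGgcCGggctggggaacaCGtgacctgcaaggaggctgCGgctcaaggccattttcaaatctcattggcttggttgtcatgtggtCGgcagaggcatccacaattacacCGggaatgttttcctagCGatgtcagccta
Hoxd9: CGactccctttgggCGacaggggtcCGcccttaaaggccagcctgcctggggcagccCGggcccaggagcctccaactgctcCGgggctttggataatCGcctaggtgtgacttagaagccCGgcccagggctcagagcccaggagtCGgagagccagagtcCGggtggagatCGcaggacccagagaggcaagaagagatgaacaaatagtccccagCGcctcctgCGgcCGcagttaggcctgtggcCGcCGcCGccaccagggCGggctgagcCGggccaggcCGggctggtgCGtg
Hoxd8: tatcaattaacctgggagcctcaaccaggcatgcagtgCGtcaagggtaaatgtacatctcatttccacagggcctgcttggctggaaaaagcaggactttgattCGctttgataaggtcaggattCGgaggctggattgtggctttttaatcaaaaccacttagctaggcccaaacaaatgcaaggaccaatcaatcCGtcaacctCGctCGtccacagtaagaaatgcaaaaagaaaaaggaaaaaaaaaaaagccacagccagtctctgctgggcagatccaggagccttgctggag
Hoxd3: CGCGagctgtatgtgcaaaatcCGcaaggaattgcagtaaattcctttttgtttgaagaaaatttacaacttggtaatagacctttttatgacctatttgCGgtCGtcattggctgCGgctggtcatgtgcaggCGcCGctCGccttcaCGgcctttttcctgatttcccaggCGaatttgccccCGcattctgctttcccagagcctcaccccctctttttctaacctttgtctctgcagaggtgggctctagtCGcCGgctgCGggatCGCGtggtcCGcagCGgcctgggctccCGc
Gm38462: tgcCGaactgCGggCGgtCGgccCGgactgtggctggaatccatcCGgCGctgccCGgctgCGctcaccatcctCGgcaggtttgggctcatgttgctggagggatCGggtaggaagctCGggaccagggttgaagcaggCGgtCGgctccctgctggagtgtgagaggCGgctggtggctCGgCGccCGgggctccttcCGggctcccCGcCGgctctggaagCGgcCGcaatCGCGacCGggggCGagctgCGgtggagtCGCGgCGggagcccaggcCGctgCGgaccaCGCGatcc
Hoxd1: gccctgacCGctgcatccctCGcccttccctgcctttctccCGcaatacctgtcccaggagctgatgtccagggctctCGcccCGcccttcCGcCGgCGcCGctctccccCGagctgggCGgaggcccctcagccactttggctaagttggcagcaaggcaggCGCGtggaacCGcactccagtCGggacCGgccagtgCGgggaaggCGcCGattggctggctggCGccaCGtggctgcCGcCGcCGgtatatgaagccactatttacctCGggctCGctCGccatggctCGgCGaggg

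The windows of the called genes differed in base composition. The window of Hoxd9 held 20 CG dinucleotides at 68.3% GC, that of Hoxd3 also held 20 at 54.0% GC, and that of Hoxd8 held 6 at 46.7% GC. The window of Gm38462 held 35 and overlaps that of Hoxd3 head to head, so the Gm38462 and Hoxd3 transcripts start next to each other on opposite strands. The flanking genes Hoxd10 and Hoxd1 held 22 and 29. Over 32851 promoter windows of the same length the median was 7, and 26.5% held 20 or more. The windows were searched on both strands for 3 short motifs: AGGTCA, the half-site of nuclear receptors such as those for retinoic acid, TGACAG, bound by Meis and related cofactors, and TGATNNAT, a core shared by Hox and Pbx proteins. AGGTCA occurred in the windows of Hoxd8, Hoxd3 and Hoxd10, and in 16.3% of all windows. Neither TGACAG nor TGATNNAT, found in 19.2% and 8.8% of all windows, occurred in those of Hoxd9, Hoxd8 or Hoxd3. These are matches of letters only.

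Hoxd8, a factor of the central Hox groups that pattern the trunk, had the largest difference of all genes tested. In the high set its probe set 1431099_at read 9.29 in mad558, 9.28 in mad561, 9.04 in mad560, 8.90 in mad562 and 9.80 in mad556. In the low set it read 6.45 in mad552, 6.14 in mad549, 6.12 in mad550, 6.18 in mad563 and 6.08 in mad559. The sets were far apart, and the low tumors lay within a narrow band. The means were 9.26 ± 0.34 (SD, n = 5) and 6.19 ± 0.15, a difference of 3.07 with a 95% interval of 2.73 to 3.41, or 8.39-fold (limma, adjusted p = 1.09e-05). A second probe set, 1433638_s_at, also separated the sets, with 9.27 ± 0.19 against 5.44 ± 0.40 and a difference of 3.83. Its low tumors were spread more widely, from 4.91 to 6.0. Among the 7 tumors between, Hoxd8 read 8.90 in mad548, 8.56 in mad554, 8.53 in mad551, 7.87 in mad553, 8.34 in mad564 and 8.75 in mad565, but 6.22 in mad555. The first 6 of these stood above every low tumor, and mad555 stood among the low tumors.

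Hoxd9, the neighbour on the other side from Hoxd3 and a member of a paralog group that patterns the thoracic region, was also higher in the high set. Its probe set 1419126_at read 7.91 in mad558, 8.59 in mad561, 8.14 in mad560, 8.36 in mad562 and 7.95 in mad556. In the low set it read 6.51 in mad552, 6.60 in mad549, 6.26 in mad550, 6.61 in mad563 and 6.60 in mad559. The sets did not overlap. The means were 8.19 ± 0.29 and 6.52 ± 0.15 (SD, n = 5 each), and the difference of 1.67 had a 95% interval of 1.37 to 1.97, or 3.19-fold (limma, adjusted p = 0.00059). Between the sets mad551 had 8.26, as high as the high set, mad553 had 6.92 and mad555 had 6.66. The other 4 lay from 7.63 to 8.0.

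Hoxd3, an anterior Hox gene that overlaps the ranking transcript on the opposite strand, had the smallest difference of the called genes and the tightest low set. Its probe set 1437664_at read 6.32 in mad558, 6.37 in mad561, 6.43 in mad560, 6.19 in mad562 and 6.74 in mad556. In the low set it read 5.09 in mad552, 5.08 in mad549, 5.06 in mad550, 5.24 in mad563 and 5.18 in mad559. The sets did not overlap, with means of 6.41 ± 0.20 and 5.13 ± 0.08 (SD, n = 5 each). The difference was 1.28 with a 95% interval of 1.05 to 1.5, or 2.42-fold (limma, adjusted p = 0.00059). The tumors between filled the space from the high to the low set, at 5.93 in mad548, 5.94 in mad554, 5.47 in mad551, 5.49 in mad553, 5.44 in mad564, 5.69 in mad565 and 5.17 in mad555. Whether transcripts of the overlapping antisense gene add to the signal of this probe set was not tested, because probe sequences were not analysed here. The same holds for the probe sets of Hoxd8, which the antisense Gm38462 crosses.

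**Figure D2:**
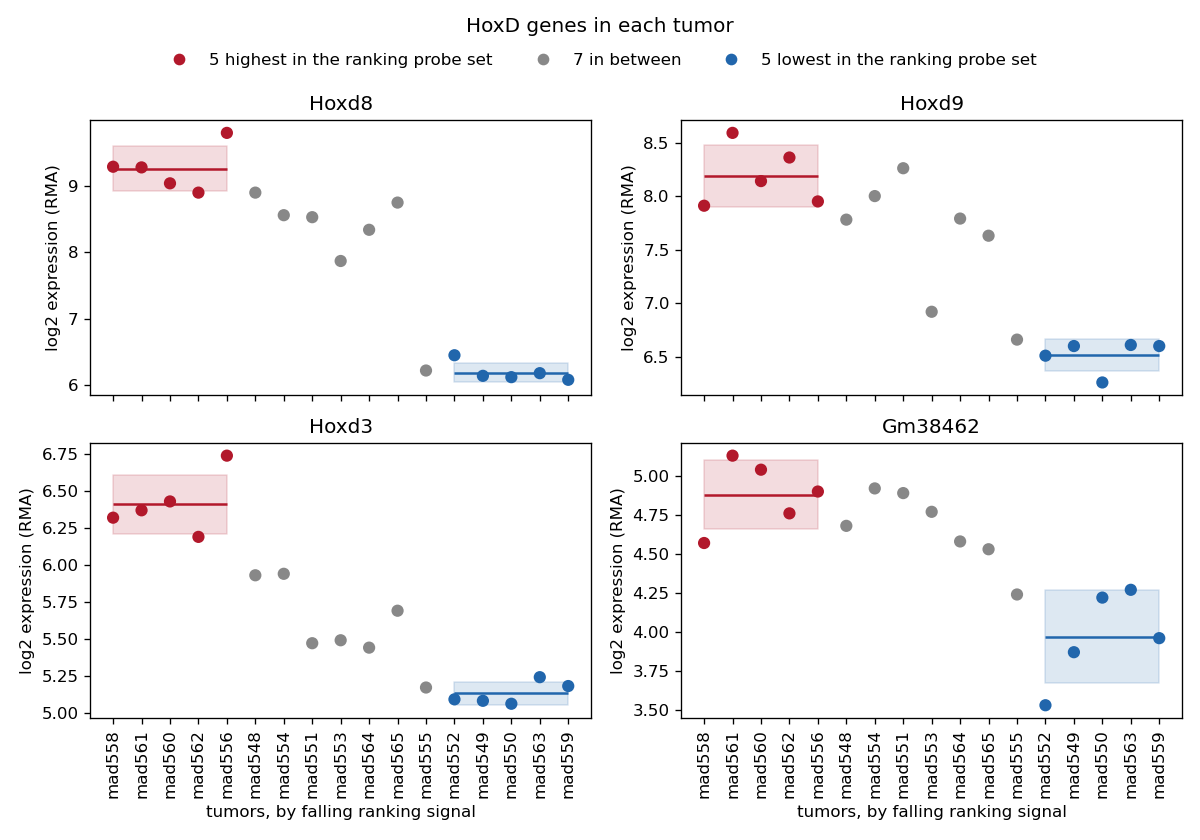
Points are the log2 expression values of 17 tumors for 4 HoxD genes, with tumors ordered along the x axis by falling signal of the ranking probe set, and lines and bands are the mean and SD of the 5 highest and the 5 lowest tumors. In each panel the 5 red points stand above the 5 blue points, and mad555 is close to the low set while the other 6 grey tumors lie above it.

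Gm38462, the lncRNA that runs antisense across Hoxd8 and Hoxd3 and lists Hoxd3os1 among its RefSeq synonyms, was named after its values had been seen. It read 4.57 in mad558, 5.13 in mad561, 5.04 in mad560, 4.76 in mad562 and 4.90 in mad556. In the low set it read 3.53 in mad552, 3.87 in mad549, 4.22 in mad550, 4.27 in mad563 and 3.96 in mad559. The sets did not overlap, but all values were near the lower end of the arrays, which ran from 3.28 to 15.59. The difference was 0.91 ± 0.15 (SE) and did not pass the adjusted threshold (limma, adjusted p = 0.467). Because of the shared name and the overlap, Gm38462 may measure the ranking transcript itself, which was not tested, so its values here and below are no separate result. Sets without overlap in the higher direction occurred for 27 genes, 0.148% of all genes tested, and in the lower direction for 57, or 0.313%, which is 0.462% for both together.

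Hoxd4, between Hoxd3 and Hoxd1, was not tested as a gene because its probe sets are annotated to both Hoxd4 and Hoxd3. Of these, 1421537_at averaged 6.68 ± 0.18 in the high set and 6.07 ± 0.18 in the low set (SD, n = 5 each), a difference of 0.61. The other, 1450209_at, averaged 5.56 ± 0.25 and 4.82 ± 0.17, a difference of 0.74. The sets did not overlap in either, at 6.44 against 6.32 and at 5.13 against 5.0. Of the genes tested, 0.148% had no overlap in this direction. Between the sets mad555 had 6.59 in 1421537_at, inside the range of the high set. In 1450209_at it had 4.70, inside that of the low set. Neither of the Hoxd4 probe sets passed in a fit over 45035 probe sets (limma, adjusted p = 0.972 and 0.649), of which 5, or 0.0111%, did. Those were both probe sets of Hoxd8, those of Hoxd9 and Hoxd3, and 1435673_at, which carries no gene name in the annotation used here. That unnamed probe set averaged 7.91 ± 0.39 in the high set and 4.42 ± 0.14 in the low set, a difference of 3.50 (limma, adjusted p = 3.75e-06), and mad555 had 4.56. Whether it measures the ranking transcript or a HoxD gene already named was not tested, so it is no separate result.

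The tested genes on either side of this stretch were not called, and Hoxd4, next to Hoxd3, was not among them. Hoxd10, which borders Hoxd9 and patterns the lumbar region and the limb, averaged 3.86 ± 0.14 in the high set and 3.90 ± 0.11 in the low set (SD, n = 5 each), a difference of -0.04 with a 95% interval of -0.23 to 0.16. Hoxd1, at the anterior end of the cluster, averaged 4.07 ± 0.08 and 4.05 ± 0.13, with a difference of 0.03 and an interval of -0.16 to 0.21. Both were close to the lowest values of the arrays, so a small change there would be hard to detect. Hoxd11, Hoxd12 and Hoxd13, the posterior genes that pattern limbs, genitalia and tail, differed by 0.01, -0.05 and -0.09. Hoxd11 and Hoxd12 were also low, with means of 4.64 and 4.36 in the high set and 4.62 and 4.41 in the low set. Beyond the cluster the homeobox gene Evx2 differed by -0.12, Lnpk, which encodes a protein of the endoplasmic reticulum, by -0.16, and Mtx2, for a protein of mitochondrial import, by 0.16. The intervals of all of these spanned 0. Of 23 genes listed for the region around HoxD, 19 were tested and none was called, beside 0.0165% of all genes. Their differences ran from -0.18 to 0.35 with a median of 0.01. The largest, 0.35, was that of Osbpl6, for an oxysterol-binding protein, at 6.91 ± 0.43 against 6.57 ± 0.14 (SD, n = 5).

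**Figure D3:**
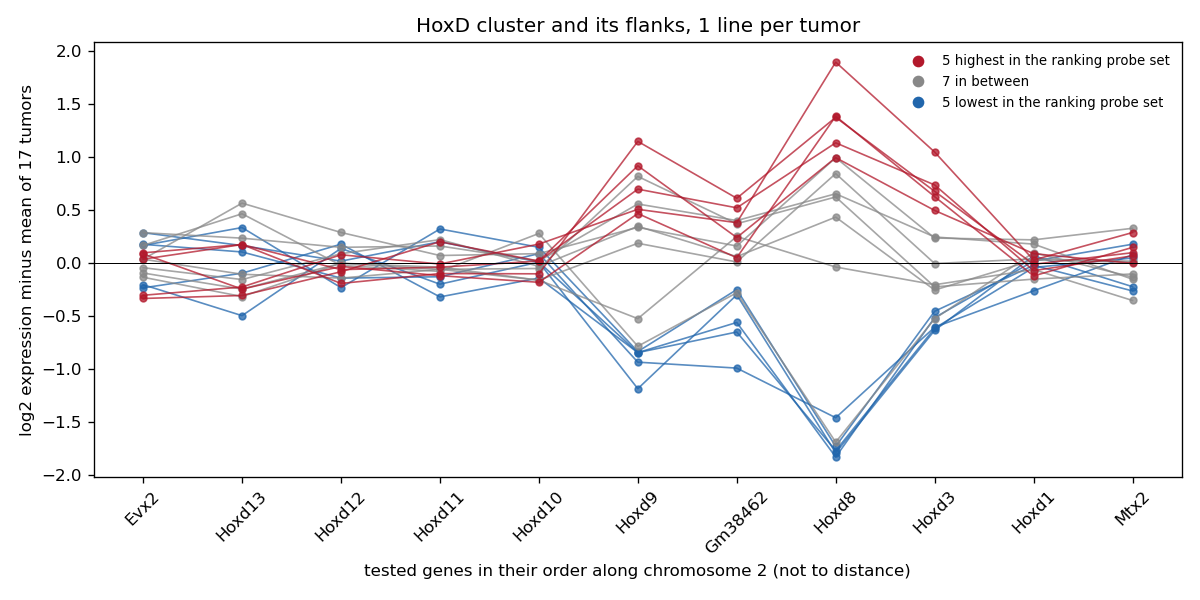
Each line is 1 of 17 tumors, with genes in their order along chromosome 2 on the x axis (not to distance) and log2 expression minus the gene's mean over 17 tumors on the y axis. Lines of the high and low sets separate from Hoxd9 to Hoxd3 and overlap at Hoxd10, Hoxd1 and beyond, where differences ran from -0.12 to 0.16. Hoxd4, between Hoxd3 and Hoxd1, was not tested as a gene and is not shown.

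The 11 tumors above the step in the ranking were also set against the 6 below, an alternative chosen after seeing the data. In 4 of 18192 genes (0.022%), Hoxd8, Hoxd9, Hoxd3 and Gm38462, all 11 tumors were higher than any of the 6. Hoxd8 was clearly split, with 7.87 as the lowest of the 11 and 6.45 as the highest of the 6. Hoxd9 and Hoxd3 were split only narrowly, at 6.92 against 6.66 and at 5.44 against 5.24. Hoxd8 and Hoxd9 were called in this comparison, while Hoxd3, with a difference of 0.86, was not (limma, adjusted p = 0.401). Hoxd8 averaged 8.84 ± 0.52 (SD, n = 11) above the step and 6.20 ± 0.13 (SD, n = 6) below it. Hoxd9 averaged 7.94 ± 0.44 and 6.54 ± 0.14, and Hoxd3 averaged 6.0 ± 0.44 and 5.14 ± 0.07. With 1 probe set per gene, the 6 tumors thus showed little spread in any of the 3 genes, and the 11 showed more. Hoxd3 ran only from 5.06 to 5.24 in the 6, low on the arrays, where RMA compresses signals. The part of that in the small spread was not tested. The second Hoxd8 probe set, 1433638_s_at, was less even. It ran from 4.91 to 6.2 in the 6 tumors and from 7.59 to 9.48 in the 11. In the lower direction 1 gene did the same (0.0055%), Zfyve28, for a FYVE-domain protein, which ran from 6.16 to 6.57 in the 11 tumors and from 6.62 to 6.97 in the 6.

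No correlation between these genes was computed over all 17 tumors, since the tumors fall into separate groups in them. Within the 11 tumors above the step and within the 6 below it, 12 pairs of the 4 genes were tested in all, two-sided, with 100000 permutations for the 11 tumors and an exact permutation test for the 6. Hoxd8 and Hoxd3, which are neighbours, were correlated over the 11 tumors, with r = 0.90 (permutation p = 8e-05, Benjamini-Hochberg adjusted 0.00096) and rho = 0.91 (permutation p = 0.00032, adjusted 0.0038). Without mad553 and mad556, the tumors farthest from the median of Hoxd8, r was 0.89. Hoxd8 and Hoxd9 had r = 0.57 and rho = 0.41 over the same tumors and did not pass (adjusted permutation p = 0.26 and 0.48), and r fell to 0.37 without mad553 and mad556. No other pair passed above the step, where r ran from 0.28 to 0.53. None passed among the 6 tumors below it. There Hoxd8 and Hoxd3 had r = -0.18 (exact permutation p = 0.84, adjusted 0.93), which became 0.79 without mad552 and mad559, so with 6 tumors not even its sign was stable. These tumors also enter the ranking, so the correlations are not independent of the separation described above.

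Outside HoxD no Hox gene passed the test, which 0.0165% of all genes did. Of 39 coding Hox genes 33 were tested, and among the 30 other than Hoxd8, Hoxd9 and Hoxd3 none was called, with differences from -0.32 for Hoxc5 to 0.17 for Hoxb3. The 9 tested HoxA genes had a median difference of -0.02 and the 9 HoxB genes one of 0.06. Of the 30, only 5 had a mean at or above the median of all genes. A small change in many of the others would be hard to detect. All 7 tested HoxC genes were lower in the high set, with a median of -0.17, but none passed and each interval spanned 0. Hoxd8 has paralogs in HoxB and HoxC, and the paralog tested here, Hoxc8, did not follow it. Hoxc8 read 10.49 in mad558, 9.88 in mad561, 8.72 in mad560, 8.61 in mad562 and 10.51 in mad556, and from 9.29 to 10.24 in the low set. The low set lay inside the range of the high set. Its difference was -0.17 with a wide 95% interval, from -1.03 to 0.69. The paralogs of Hoxd9 and Hoxd3 differed by 0.07 (Hoxa9), -0.19 (Hoxb9), -0.23 (Hoxc9), -0.02 (Hoxa3) and 0.17 (Hoxb3).

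Some HoxC genes varied widely among these tumors. Over the 17 tumors Hoxc8 was lowest in mad554 at 6.4 and highest in mad556 at 10.51. Hoxc4 and Hoxc5, at the anterior end of HoxC, were also lowest in mad554, at 9.37 and 6.02, and highest in mad549, at 11.55 and 8.87. In mad554 Hoxd8 stood at 8.56 and Hoxd9 at 8.0, among the 11 tumors above the step, and mad549 belonged to the low set. The tumor with the lowest Hoxc4, Hoxc5 and Hoxc8 was therefore not one with low Hoxd8 or Hoxd9. Hoxc9 was also lowest in mad554, at 7.04. Hoxc6 was lowest in mad565 at 6.21, and Hoxc13, which ran only from 4.71 to 5.3, was lowest in mad560. Of the noncoding RNAs listed for the Hox clusters, Hoxb5os and Hoxa11os were tested. Hoxb5os averaged 5.32 ± 0.06 in the high set and 5.59 ± 0.08 in the low set (SD, n = 5 each), without overlap, but the difference of -0.27 did not pass (limma, adjusted p = 0.999).

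**Figure D4:**
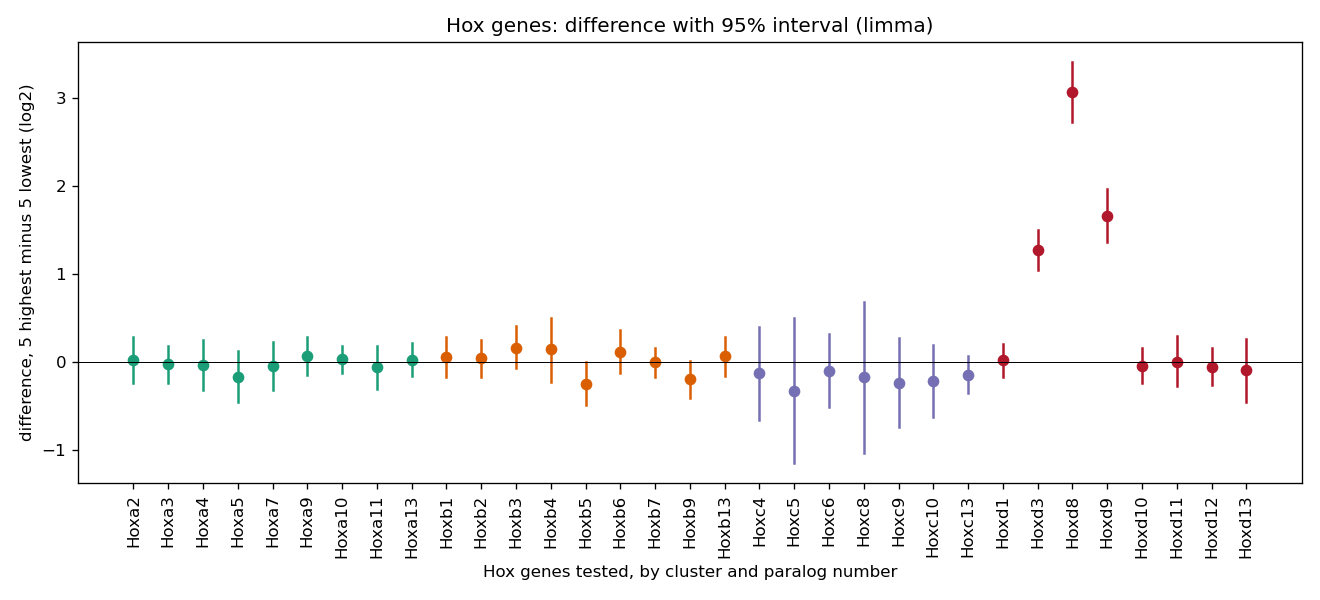
Points are the differences of the 5 highest minus the 5 lowest tumors (log2) for 33 Hox genes, coloured by cluster, and bars are limma's 95% intervals. Hoxd8 at 3.07, Hoxd9 at 1.67 and Hoxd3 at 1.28 stand apart from the other 30, which lie between -0.32 and 0.17.

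No gene listed as acting with or upstream of Hox genes in development was called. Over all genes tested the share called was 0.0165%, so a list of this size without a called gene is no result about its genes. Of 10 tested TALE cofactors, homeodomain proteins that bind DNA with Hox proteins, none was called. The largest differences were 0.55 for Meis2 (95% interval -0.39 to 1.49) and -0.37 for Pbx3 (-0.86 to 0.13). Of 16 tested genes of retinoic acid signalling, which sets Hox boundaries in the embryo, none was called, and differences ran from -0.27 for the receptor gene Rara to 0.27 for Cyp26b1, an enzyme that breaks retinoic acid down. Of 22 tested Polycomb genes, whose products keep Hox genes silent, none was called, with differences from -0.23 for Phf19 to 0.13 and a median of 0.01. Of 14 trithorax and H3K27 demethylase genes, which oppose Polycomb, none was called. The largest differences were 0.35 for Uty, which lies on the Y chromosome and was highest in the 5 tumors with Y-linked transcripts, and -0.26 for the demethylase gene Kdm6b. Among 10 Para-Hox and Evx genes and their homeobox relatives none was called, and the largest difference was 0.24 for Cdx2, a regulator of posterior Hox genes.

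Genes of sympathetic identity, neuronal differentiation and growth were not called either, which is near the share of 0.0165% over all genes. Of 13 tested sympathoadrenal transcription factors none was called, with a median difference of -0.08. The largest was that of Gata2, a zinc finger factor of sympathetic neurons, at 11.86 ± 0.44 against 11.29 ± 0.42 (SD, n = 5 each), a difference of 0.58 with a 95% interval of 0.05 to 1.10 (limma, adjusted p = 0.999), and its paralog Gata3 differed by -0.33. Of 22 catecholamine and neuropeptide genes none was called, with differences from -0.57 to 0.78, the latter for the enkephalin precursor Penk, and Npy, for neuropeptide Y, differed by 0.65. Of 24 tested genes of neuronal differentiation none was called. Ret, the receptor kinase of the GDNF family, differed by 0.73 and its coreceptor gene Gfra3 by 0.80, or 0.39 without the tumors that carried Y-linked transcripts. Of 23 tested proliferation genes none was called, and they lay between -0.13 and 0.17, while 18 MYC target genes lay between -0.11 and 0.23.

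No gene beyond HoxD passed the adjusted threshold, and the genes next in line among those above the median level are named here as not past it (limma, adjusted p = 0.999 for each but Rec114). Rec114, a gene of meiotic recombination, averaged 9.72 ± 0.26 in the high set and 10.39 ± 0.13 in the low set (SD, n = 5 each), without overlap, a difference of -0.67 (limma, adjusted p = 0.941). Ror2, a Wnt receptor kinase, had 7.99 ± 0.29 against 8.59 ± 0.19, also without overlap. Chrna3, a subunit of the nicotinic receptor of sympathetic ganglia, had 8.46 ± 0.21 against 9.06 ± 0.32, and the Wnt modulator Sfrp2 and the Hedgehog effector Gli2 differed by -0.85 and -0.69. With 6 tumors against 6 these last values shrank to -0.44 and -0.35, that of Chrna3 from -0.60 to -0.30 and that of Slc4a10 from -0.71 to -0.31. Other values on the lower side were -0.69 for Igfbpl1, -0.71 for Slc4a10, -1.09 for Lypd1 and -0.89 for Ttc9, the last of which was -0.57 without mad561. On the higher side the differences were 1.02 for the lipoprotein lipase Lpl, 0.95 for the fatty acid transporter Cd36 and 0.71 for the mitochondrial carnitine transferase Cpt1a. Chchd10 differed by 0.80, Gsg1l by 0.75, the phosphatase Dusp4 by 0.75, the myelin gene Pmp22 by 0.69 and the glutathione peroxidase Gpx3 by 0.52, or 0.27 without the tumors that carried Y-linked transcripts. As single values Cpt1a lay from 9.75 to 10.01 in the high set, against 8.35 to 9.61 in the low set.

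Markers of other tissues moved with single tumors, those of muscle in the low set only and those of liver in both sets. All 12 skeletal muscle genes were lower in the high set, with a median difference of -1.79 and none called. Their mean level per tumor lay from 5.83 to 6.09 in the high set and from 5.93 to 10.52 in the low set, where mad549 had 9.77 and mad550 had 10.52. Ckm, the creatine kinase of muscle, read 11.07 and 11.24 in those tumors and from 6.0 to 6.58 in the others of the low set. The muscle genes Myh1 and Cox6a2, with differences of -2.53 and -0.52, stood highest of the low set in mad550. Without the tumors with muscle or liver RNA their differences were -1.0 and -0.18. The embryonic myosin gene Myh3, with -1.09, instead read 9.48 in mad549 and 9.33 in mad550, the lowest values of the low set, and 10.67 and 10.95 in mad563 and mad559. Liver genes had a mean of 9.66 in mad562 of the high set and 7.19 in mad559 of the low set, and from 4.94 to 5.25 in the other tumors of the sets. Albumin (Alb) read 12.52 in mad562 and 10.26 in mad559. All 6 tested white fat genes were higher in the high set, with a median of 0.88, none called, and means per tumor of 6.31 to 9.68 against 5.89 to 8.34. Lpl, Cd36 and Cpt1a stand beside these fat values, and the part of fat in their differences was not tested.

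The remaining lists of cell types and responses held no called gene, beside 0.0165% of all genes, and overlapped between the sets in their mean per tumor. Brown fat genes had a median difference of 0.46, with 1.59 for Ucp1, the uncoupling protein of brown fat (95% interval spanning 0). Among stromal cells the medians were 0.19 for fibroblast genes, with 0.65 for the collagen gene Col1a2, 0.21 for smooth muscle and pericyte genes, with 0.52 for Tagln, and 0.17 for endothelial genes, with 0.54 for the junction gene Cldn5. The part of stromal cells in the HoxD differences was not tested. Macrophage, T and NK cell, B and plasma cell and erythroid genes had medians of 0.01, -0.01, 0.02 and -0.22. The largest single difference of these was 1.13 for Jchain, the joining chain of secreted antibodies, which read 8.88 in mad562 and 8.01 in mad561 and from 4.61 to 4.91 in the other 3 high tumors. The B and plasma cell mean was 6.82 in mad562 and lay from 5.5 to 6.07 in the rest of the high set. Kidney and adrenal cortex genes, of organs next to which these abdominal tumors grow, had medians of -0.04 and -0.08, and their means per tumor stayed between 5.22 and 5.52 and between 5.84 and 6.03 in the sets. Schwann cell and glial genes, neural crest and mesenchymal genes, intestine and pancreas genes, genes of spleen and lymph node stroma and genes of the reproductive tract had medians of -0.01, -0.02, 0.11, -0.03 and -0.02. The response lists stood at 0.13 for interferon, 0.11 for immediate early genes, 0.22 for hypoxia and glycolysis and 0.02 for heat shock. Differences of the tested sex chromosome genes ran from -2.63 to 2.5.

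The HoxD values of the tumors with such markers are given beside them. Within the low set Hoxd8 was 6.14 and 6.12 in the muscle-rich mad549 and mad550 and from 6.08 to 6.45 in the other 3. Within the high set it was 8.90 in the liver-rich mad562. Without the 4 tumors of the sets in which muscle or liver genes were high, Hoxd8 was still called, while Hoxd9 at 1.58 and Hoxd3 at 1.30 kept their sizes but no longer passed with 4 tumors against 2 (limma, adjusted p = 0.194 and 0.152). Outside the sets mad553 had the highest muscle mean of all, 12.09, and the lowest Hoxd8, 7.87, of the 11 tumors above the step. Without the tumors that carried Y-linked transcripts Hoxd8, Hoxd9 and Hoxd3 remained called.

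**Figure D5:**
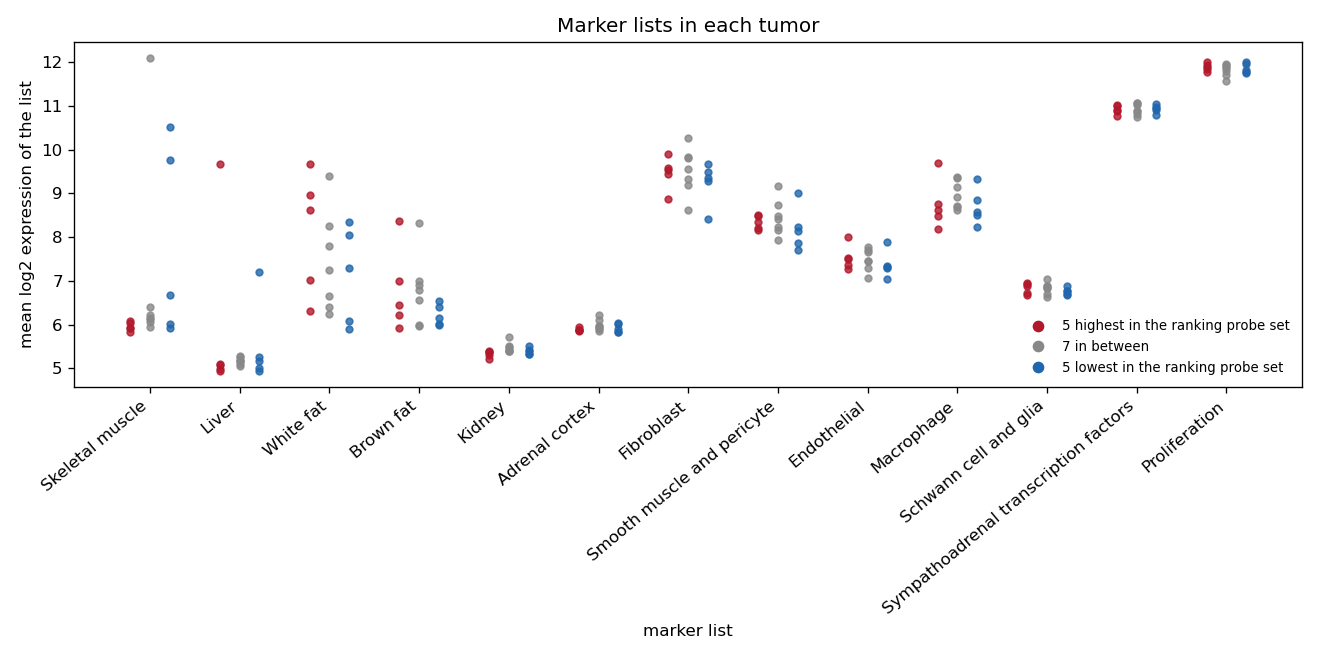
Each point is the mean log2 expression of a marker list in 1 tumor, for the 5 highest, 7 in-between and 5 lowest tumors in the ranking probe set. Skeletal muscle reached 9.77 and 10.52 in 2 low tumors and 12.09 in mad553, liver reached 9.66 in mad562 and 7.19 in mad559, and the other lists overlapped between the sets.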

How the data were processed

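The arrays were Affymetrix whole-genome mouse arrays, 1 per tumor, labelled with the two-cycle protocol from Trizol RNA. The deposited values are log2 expression per probe set, made by the authors with RMA. The labels name RMA and Partek 6.4, while the study's methods describe MAS5 signals, and the values were used as log2 without further scaling. RMA compresses low signals, so differences near the floor are understated.

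Tumors were ranked by the brighter of the Hoxd3os1 probe sets, and the 5 highest were compared with the 5 lowest. Of 45101 probe sets, 64 were controls, 34945 carried 1 symbol, 932 several and 9160 none. Each gene was taken from the single-symbol probe set of highest mean over 17 tumors, which left 18192 genes after both probe sets of the ranking gene were removed. Differences were tested with limma 3.58.1 in R 4.3.3 (two-sided), with Benjamini-Hochberg adjustment over all genes and a threshold of 0.05. The fit was tested on simulated data. The 39 gene lists, the tumors and the alternatives were chosen with earlier results of these data known. Chosen to be named were all Hox genes, the members with the largest differences in a list, and called genes. The called genes were filled up to 12 per direction by the smallest unadjusted p. That fill took genes at or above the median level with a difference of at least 0.5. Not every gene so chosen is written out. Most HoxA and HoxB genes stand only in a figure, and some lists give only a median or range. The rule does not cover Gm38462, Zfyve28, Evx2, Lnpk, Mtx2, Th, Hand2, Ckm, Alb and the probe set without a name, which were added once their values were known. A planned search for genes of like pattern over 17 tumors was not made, since the tumors fall into separate groups. Sequences are from RefSeq on GRCm38.p6. Python 3.11.15 and SciPy 1.17.1 were used. The number of arrays limits the precision.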

Additional observations from a re-analysis of the deposited data

Results flagged for a closer look

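Of 110 sets of 5 tumors checked for a single distant value, 8 held one beyond Dixon's 95% limit, and about 1 in 20 would be so by chance. Of the called genes, Hoxd8 in the low set stood at 6.45 in mad552 against 6.08 to 6.18 in the other 4 tumors. Hoxd9 in the low set stood at 6.26 in mad550 against 6.51 to 6.61. Both lie far below the high set. Hoxa9 in the high set stood at 6.53 in mad556 against 6.63 to 6.66. The liver-rich mad562 held 2 of the distant values of the high set, Chchd10 at 10.83 against 9.55 to 9.85 and Lpl at 13.65 against 12.14 to 12.56. The tumor mad559, also with liver RNA, held 2 of the low set, Pmp22 at 9.78 against 10.46 to 10.55 and Ror2 at 8.92 against 8.47 to 8.56. Ttc9 in the high set stood at 6.24 in mad561 against 7.64 to 8.03.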

How the results depend on the processing

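Under 23 alternatives, 3 of them chosen after seeing the data, Hoxd8 was called in 23, Hoxd9 in 21 and Hoxd3 in 20, and no other coding Hox gene in any. With only the 9096 genes at or above the median level tested, the count of higher genes and of called Hox genes was 1, since Hoxd9 and Hoxd3 lie below that level. Without the tumors with muscle or liver RNA both counts were also 1. Leaving out each tumor in turn gave 3 to 3 higher genes, 3 to 3 Hox genes and 0 to 1 lower genes. The 1 lower gene was Rec114 without mad562, at -0.77 (limma, adjusted p = 0.0474). With 11 tumors against 6 Hoxd3 differed by 0.86 and was not called (limma, adjusted p = 0.401), Gm38462 was called at 0.78 (limma, adjusted p = 0.0115), and Slc4a10 turned from -0.71 to 0.30. A straight line over 17 tumors also called Gm38462 (limma, adjusted p = 0.00757), but that line runs across the step in the ranking, which separates the tumors into groups. Among genes that were not called, 11 tumors against 6 shrank the differences of Gli2 to -0.09, Sfrp2 to -0.32 and Rec114 to -0.28, and Ttc9 was -0.51 without the tumors with Y-linked transcripts. The causes were not tested. Between sets, over the alternatives with 1 value per gene, Hoxd8 differed by 2.64 to 3.45. Hoxd9 differed by 1.40 to 1.74 and Hoxd3 by 0.86 to 1.36. By itself the second Hoxd8 probe set differed by 3.83. No paired analysis was possible because every mouse tumor was hybridized once, under a single label. Low signals of Hoxd10, Hoxd11, Hoxd12, Hoxd1, Gm38462 and many HoxA and HoxB genes limit what can be detected there.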
